A study of Rattus norvegicus with 10 samples.

Results

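The miRNAs described here are miR-451 and miR-144, which are best known from red blood cells. Members were all mature miRNAs of the count files whose name begins with rno-miR-451, rno-miR-144 or rno-miR-486. This gave 4 of 723 mature miRNAs, namely miR-451-5p, miR-451-3p, miR-144-5p and miR-144-3p, while miR-486 was not analysed here. A filter asked for 1 cpm or more (cpm being the read count scaled to a common library size) in 5 or more of the 10 libraries. It left 359 miRNAs to be tested, 3 members among them, and not miR-451-3p.

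The libraries hold small RNA from tissue of female Wistar rats, and every group, the controls included, had collagen-induced arthritis (CIA), a joint inflammation raised by immunization with bovine type II collagen in Freund's adjuvant. There were 5 groups of 2 libraries. CIA_B was sampled before any therapy. MS_E and MS_A were sampled at 1 h and 34 days of therapy by mechanical stimulation, which the labels call AP. It was the puncture and twirling of a fine needle at points of the lower back and below the knee, repeated every other day. PLA_E and PLA_A were sampled at the same times of placebo, a weekly injection of saline into the peritoneum. Ages of the animals are not given in the sources used here, and there was no healthy group among these libraries. The labels name muscle beneath the epidermis, the study describes subcutaneous tissue with its muscle, and the design text also speaks of blood. Blood was drawn from the animals under anaesthesia, and whether vessels were flushed is not given in the sources used here. Reads on miRNAs numbered between 1513799 in CIA_B replicate 1 and 8926170 in MS_E replicate 1, a 5.90-fold range. The labels do not say that the libraries of a group are separate animals, so the p-values measure the spread between these libraries. Skeletal muscle miRNAs summed to between 83967 and 268670 cpm, and in each group 1 library held far more miR-1-3p (80416 to 122986 cpm) than the other (10117 to 15567 cpm).

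A miRNA is a short RNA that, loaded into an Argonaute protein, represses messages that pair with its seed, the bases 2 to 8 from its 5′ end. miR-144 and miR-451 lie side by side, are transcribed together in red cell precursors under the factor GATA1, and stay in the circulating red cell, which has no nucleus. miR-451 is the known case of a miRNA made without Dicer: its hairpin is too short for that enzyme and is cut by Argonaute 2 itself, so that the mature strand runs from the 5′ arm into the loop and the 3′ arm is not released as a miRNA. The miR-144 hairpin is processed by Dicer and gives both arms. In solid tissue both miRNAs are widely read as a sign of blood in the sample, and the ratio of miR-451 to miR-23a is used as an index of haemolysis in plasma.

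The sequences are from RefSeq, and all 4 members matched an entry by name. Both hairpins are on the plus strand of chromosome 10 of the rat assembly GRCr8, Mir144 at chr10:63459397-63459479 and Mir451a at chr10:63459569-63459640, with 89 bases between them. The authors aligned to rn4, an older assembly, whose coordinates are not given here. The nearest protein-coding genes are Dhrs13 and Flot2 on one side and Eral1 and Fam222b on the other. The mature strands are shown first, with the seed in capitals, because the seed decides which messages each can bind.
rno-miR-451-5p: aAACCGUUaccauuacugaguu
rno-miR-451-3p: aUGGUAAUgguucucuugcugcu
rno-miR-144-5p: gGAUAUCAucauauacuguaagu
rno-miR-144-3p: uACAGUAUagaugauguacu
The 4 seeds differ from each other, and no other rat miRNA of the RefSeq table has any of them in bases 2 to 8. Over bases 2 to 7, miR-144-3p shares its letters with miR-101a-3p and miR-101b-3p, and miR-451-3p with miR-1193-5p, which had 0 reads in all 10 libraries. The hairpins are shown because the place of the mature strand sets the members apart, with both arms of miR-144 and the 5p strand of miR-451 in capitals.
Mir144: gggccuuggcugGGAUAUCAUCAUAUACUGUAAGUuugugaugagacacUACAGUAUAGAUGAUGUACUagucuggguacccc
Mir451a: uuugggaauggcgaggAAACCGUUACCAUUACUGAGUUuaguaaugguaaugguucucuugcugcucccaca
The Mir144 hairpin has 83 bases and the Mir451a hairpin 72.

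Levels are given in cpm after TMM scaling in edgeR, which corrects library totals for differences in composition. On this scale 3 counts, the one-sided limit that a count of 0 allows, stood for 2.60 cpm in the smallest library and 0.366 to 0.828 cpm in the other 9. Neither these limits nor the intervals below include more than counting error, because several reads can stem from 1 molecule. The intervals are two-sided, so their upper bound for a count of 0 lies above this limit. miR-451-5p was the most abundant member, with 1811 reads in all and rank 153 of 359 by mean level. miR-144-3p had 326 reads and rank 262, and miR-144-5p had 301 reads and rank 264. Each of these 3 was detected in all 10 libraries. miR-451-3p had 2 reads, both in PLA_A replicate 2, and 0 in the other 9 libraries. In a bulk tissue, fewer cells of a type and less RNA per cell cannot be told apart, so none of these levels counts red cells.

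miR-451-5p, whose Dicer-independent strand is the dominant miRNA of mature red cells, was at 19.9 and 12.9 cpm in CIA_B replicates 1 and 2. At 1 h it was at 79.8 and 19.8 cpm in MS_E, and at 24.8 and 14.3 cpm in PLA_E. At 34 days it was at 34.4 and 42.5 cpm in MS_A, and at 24.2 and 41.6 cpm in PLA_A. MS_E replicate 1 stood highest, and its partner lay just under CIA_B replicate 1. The 4 libraries of 34 days were above both CIA_B libraries, whereas the libraries of 1 h overlapped with CIA_B in either arm. How many of all miRNAs tested had these 4 libraries above CIA_B was not counted. By group mean, in cpm with SD over n = 2 libraries, MS_E came first (49.8 ± 42.4), followed by MS_A (38.5 ± 5.76), PLA_A (32.9 ± 12.3), PLA_E (19.6 ± 7.39) and CIA_B (16.4 ± 4.92). Every pair of neighbours in this order overlapped.

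miR-144-5p, the arm that lies nearer the start of the hairpin, was at 3.46 and 2.79 cpm in CIA_B. At 1 h it was at 4.17 and 3.12 cpm in MS_E, and at 5.23 and 2.21 cpm in PLA_E. At 34 days it was at 7.12 and 7.56 cpm in MS_A, and at 6.73 and 11.9 cpm in PLA_A. The 4 libraries of 34 days were thus above all 6 others. The share of all miRNAs tested for which this held was not computed. The means ran from PLA_A (9.29 ± 3.62 cpm, SD, n = 2) through MS_A (7.34 ± 0.311), PLA_E (3.72 ± 2.14) and MS_E (3.65 ± 0.740) down to CIA_B (3.13 ± 0.472). Of the neighbours in this order, MS_A and PLA_E did not overlap, and the other pairs did. The counts were low, between 4 and 65 reads, and the interval of the 4 reads of CIA_B replicate 1 ran from 0.943 to 8.86 cpm (exact Poisson, 95%).

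miR-144-3p, the arm with which the known repression of the antioxidant factor Nrf2 is described, varied most. It was at 0.866 and 1.76 cpm in CIA_B, from 1 and 12 reads. At 1 h it was at 4.63 and 1.41 cpm in MS_E, and at 9.65 and 0.828 cpm in PLA_E. At 34 days it was at 0.712 and 8.78 cpm in MS_A, and at 11.7 and 14.0 cpm in PLA_A. PLA_A was the one group in which both libraries were high, and in PLA_E and MS_A 1 library was high and the other lay under CIA_B replicate 1. Its means descended from PLA_A (12.9 ± 1.65 cpm, SD, n = 2) to PLA_E (5.24 ± 6.24), MS_A (4.74 ± 5.70), MS_E (3.02 ± 2.28) and CIA_B (1.32 ± 0.636). PLA_A and PLA_E did not overlap, and the other neighbours did. The highest library exceeded the lowest 19.7-fold, against 6.17-fold for miR-451-5p and 5.37-fold for miR-144-5p. The interval of the single read in CIA_B replicate 1 ran from 0.0219 to 4.82 cpm, and that of the 47 reads in PLA_A replicate 1 from 8.60 to 15.6 cpm (exact Poisson, 95%).

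**Figure D1:**
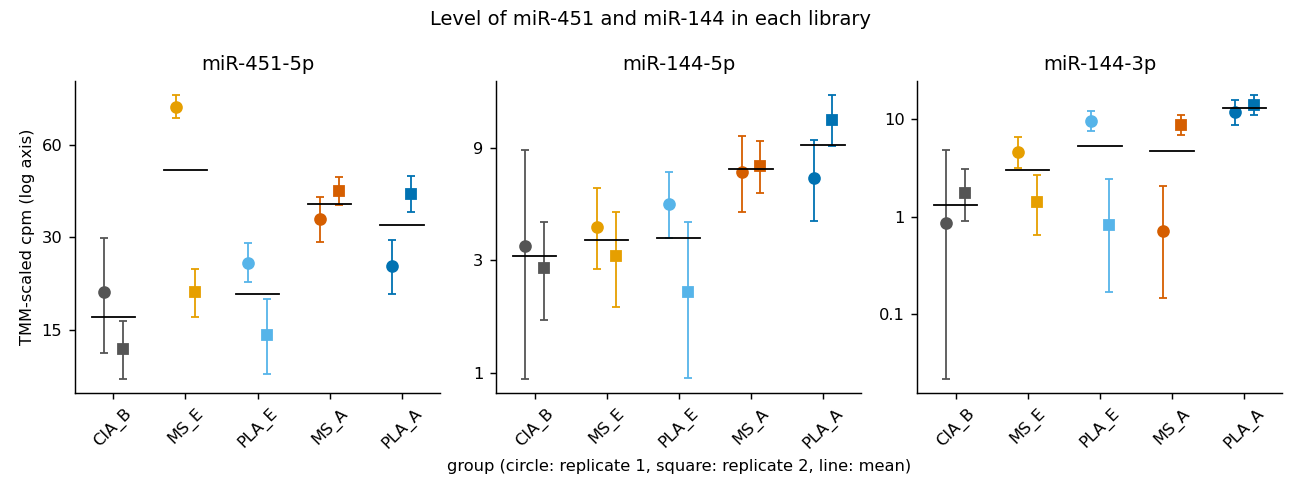
Level of miR-451-5p, miR-144-5p and miR-144-3p in cpm on log axes, 1 panel each, for the 5 groups. Circles are replicate 1, squares replicate 2, bars exact Poisson 95% intervals of the counts and lines the group means. miR-144-5p lies between 6.73 and 11.9 cpm in the 4 libraries of 34 days and at 5.23 cpm or less elsewhere, and MS_E replicate 1 stands alone at 79.8 cpm of miR-451-5p.

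The comparisons with CIA_B ask what differed from the disease before any therapy. Those of 34 days hold both the therapy and the time that passed, which cannot be told apart in them. All comparisons with CIA_B share the same 2 control libraries, so their fold changes are not independent of each other. At 34 days of placebo, both miR-144 arms were past the thresholds that the study used, namely over 2-fold with an unadjusted p under 0.05. miR-144-3p was higher by 3.11 on the log2 scale (standard error 1.35, unadjusted p = 0.0468, adjusted p = 0.542) and miR-144-5p by 1.60 (standard error 0.63, unadjusted p = 0.0313, adjusted p = 0.542). Here and below, p-values of single miRNAs come from the quasi-likelihood test of edgeR, adjusted over the 359 tested by the method of Benjamini and Hochberg. miR-451-5p was 1.02 higher (standard error 0.69, adjusted p = 0.697). Of all miRNAs tested here 7.52% were past these thresholds, against 2 of 3 members, and 0.0% had an adjusted p under 0.05. Both PLA_A libraries exceeded both CIA_B libraries for 3 of 3 members, as they did for 20.9% of all miRNAs tested. The median log2 fold change was 1.60 over the members and 0.12 over all tested. Both arms come from 1 hairpin and miR-451 from the same transcript, so the 3 members are not separate pieces of evidence. Without PLA_A replicate 2, miR-144-5p was 1.02 higher and miR-144-3p 2.82 higher, and neither was past the thresholds, which also held when either CIA_B library was left out. miR-144-3p alone lost the call with limma-voom (2.98, unadjusted p = 0.0652), DESeq2's size factors, library size only, the replicate block, summed counts and the miR-1-3p term, and both arms lost it with no filter (unadjusted p = 0.0558 and 0.0548). The study lists miR-144 for this comparison, with the arm uncertain, and since that list was made on these samples it and the present values are not independent.

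At 34 days of mechanical stimulation no member was past the thresholds of the study, which 1.11% of the miRNAs tested were. On the log2 scale miR-144-5p was 1.26 higher than in CIA_B (standard error 0.63, adjusted p = 0.994) and miR-451-5p 1.25 higher (standard error 0.69, adjusted p = 0.994). For these 2 of 3 members both MS_A libraries were above both CIA_B libraries, as for 16.2% of the miRNAs tested. When any 1 of these 4 libraries was omitted, the fold change of miR-451-5p stayed at 0.95 to 1.49 and that of miR-144-5p at 1.08 to 1.34. For miR-144-3p the value was 1.71 (standard error 1.32, adjusted p = 0.994), and -1.13 without MS_A replicate 2. The members' median was 1.26 and that of all tested 0.11. miR-451 is on the list of the study for this comparison, which was likewise drawn from these libraries.

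At 1 h of mechanical stimulation miR-451-5p was past the thresholds of the study, 1.62 above CIA_B on the log2 scale (standard error 0.69, unadjusted p = 0.0444, adjusted p = 0.721), as were 6.13% of the miRNAs tested. The libraries of the groups overlapped, and without MS_E replicate 1 the fold change was 0.25 (unadjusted p = 0.718). The call was also lost with limma-voom, the tool of the study (1.37, unadjusted p = 0.0923), with library size only, with the replicate block and with only the libraries compared. miR-144-5p had a log2 fold change of 0.26 and miR-144-3p of 1.02 (standard errors 0.63 and 1.33), and without the same library these were -0.03 and -0.18. At 1 h of placebo the log2 fold changes were 0.28 for miR-451-5p, 0.31 for miR-144-5p and 1.85 for miR-144-3p (standard errors 0.68, 0.63 and 1.32). None of the 3 was past the thresholds, which 0.557% of all tested were, and the last was -0.82 without PLA_E replicate 1. With the 4 groups after therapy averaged, the members were 1.04, 0.86 and 1.92 higher than CIA_B in the same order (standard errors 0.58, 0.53 and 1.17, adjusted p = 0.938, 0.946 and 0.946 in edgeR). None passed the thresholds there, against 4.18% of all tested, and omitting any 1 of the 10 libraries turned the sign of none of the 3.

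The comparisons between the arms ask whether results under the needle and the placebo differed. The placebo also differed from the needle in site, route and schedule, which cannot be told apart here. At 1 h the log2 fold change of MS_E over PLA_E was 1.34 for miR-451-5p (standard error 0.68, unadjusted p = 0.0789, adjusted p = 0.834 in edgeR), -0.06 for miR-144-5p and -0.83 for miR-144-3p. Without MS_E replicate 1 the first was -0.05. None was past the thresholds of the study, against 3.90% of all tested. At 34 days the log2 fold change of MS_A over PLA_A was 0.23 for miR-451-5p, -0.34 for miR-144-5p and -1.40 for miR-144-3p (standard errors 0.67, 0.58 and 1.17). miR-144-3p was lower in both MS_A libraries than in both PLA_A libraries, as 12.5% of all miRNAs tested were, and its fold change ran from -4.19 without MS_A replicate 2 to -0.51 without MS_A replicate 1. Here 1.67% of all tested passed the thresholds and no member did.

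Between 1 h and 34 days, miR-144-5p was 1.01 higher on the log2 scale in MS_A than in MS_E (standard error 0.59, unadjusted p = 0.121) and 1.29 higher in PLA_A than in PLA_E (standard error 0.59, unadjusted p = 0.0566), with adjusted p = 0.914 and 0.999 in edgeR. In both arms the later libraries lay above the earlier ones without overlap, as they did for 16.7% of all tested under stimulation and 15.3% under placebo. Leaving out 1 library moved the latter between 0.70 (without PLA_A replicate 2) and 2.07 (without PLA_E replicate 1). miR-144-3p had a log2 fold change of 1.25 in PLA_A over PLA_E (standard error 1.17, unadjusted p = 0.312), also without overlap. This value turned on PLA_E: it was 3.92 when the library at 9.65 cpm was left out and 0.39 when that at 0.828 cpm was. Its log2 fold change in the stimulated arm was 0.69 with overlap. miR-451-5p had log2 fold changes of -0.37 and 0.74, both with overlap, and the former was 1.01 without MS_E replicate 1. No member was past the thresholds of the study, which 4.18% and 2.51% of all tested were. The interaction of arm and time was tested directly: it was -1.12 for miR-451-5p, -0.29 for miR-144-5p and -0.57 for miR-144-3p on the log2 scale (standard errors 0.95, 0.83 and 1.66, adjusted p = 0.993 each in edgeR), and 3.34% of all tested passed the thresholds there. In all 10 comparisons 0 members and 0.0% of the miRNAs tested had an adjusted p under 0.05. At an unadjusted p under 0.05 there were 3 member results in the 10 comparisons, those named above, and DESeq2 gave no member an adjusted p under 0.05 either. Over all 359 tested, DESeq2 gave such a value to 8 in MS_E against CIA_B, to 5 in MS_A against MS_E, to 2 each in PLA_A against CIA_B, MS_E against PLA_E and MS_A against PLA_A, and to 0 in the other 5 comparisons.

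**Figure D2:**
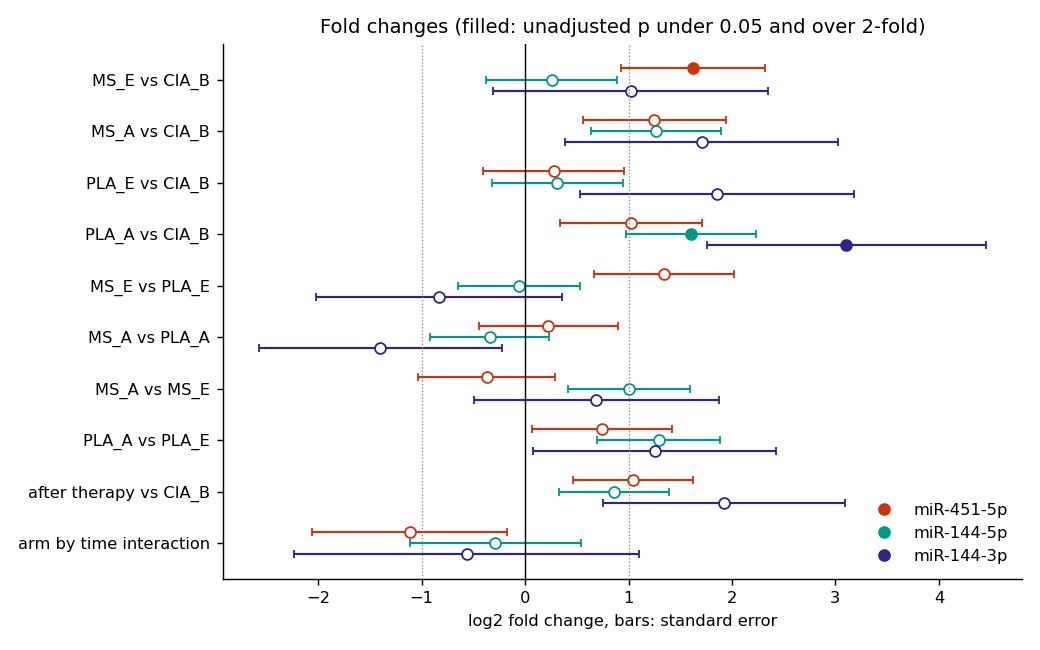
Log2 fold changes of the 3 tested members in the 10 comparisons, with standard errors as bars. Filled points are past the thresholds of the study, and dotted lines mark a 2-fold change. The 3 filled points are miR-451-5p at 1.62 in MS_E against CIA_B and the miR-144 arms at 1.60 and 3.11 in PLA_A against CIA_B.

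The arms of each hairpin were then set against each other. Of 1813 miR-451 reads 2 were of the 3p arm, a share of 0.110% (exact binomial 95% interval 0.0134 to 0.398%). Of 627 miR-144 reads 326, or 52.0%, were of the 3p arm. This even division in the sum hid a wide spread among libraries. Before therapy the 3p arm gave 1 of the 5 reads in CIA_B replicate 1 and 38.7% of 31 in replicate 2. For stimulation it was 52.6% and 31.0% at 1 h, then 9.09% and 53.7% at 34 days. For placebo it was 64.9% and 27.3% at 1 h, then 63.5% and 54.2% at 34 days. The lowest, MS_A replicate 1, rested on 33 reads (interval 1.92 to 24.3%) and did not overlap in its interval with MS_A replicate 2 on 134 reads (44.9 to 62.4%). In PLA_E the shares of 111 and 11 reads had intervals of 55.2 to 73.7% and 6.02 to 61.0%, which overlapped. The libraries with the larger share did not form a group of the design, though both PLA_A libraries were among them. The share was 52.6% or more in every library with 57 or more miR-144 reads. It was 38.7% or less in every library with 33 or fewer.

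**Figure D3:**
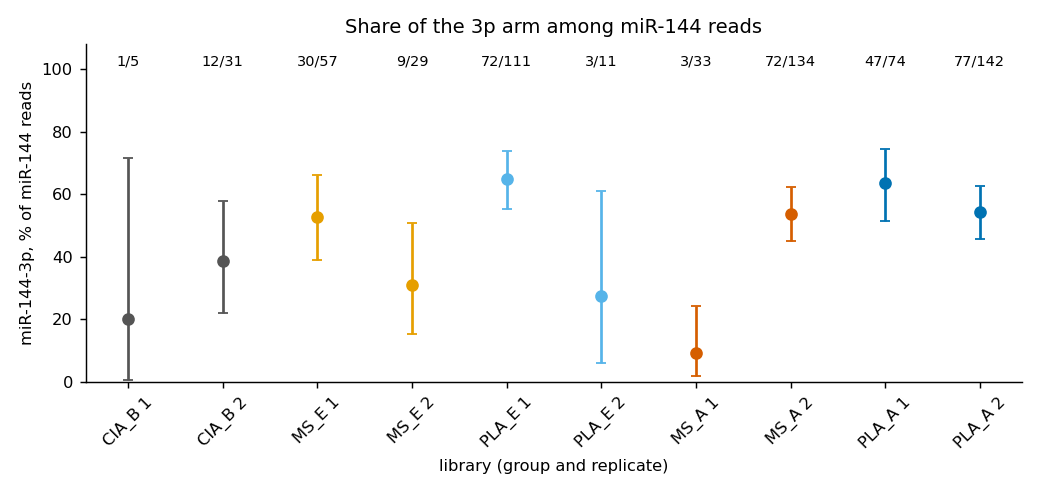
Share of the 3p arm among miR-144 reads, in percent, for the 10 libraries, with exact binomial 95% intervals as bars and the 3p reads over all miR-144 reads printed above. The share runs from 9.09% in MS_A replicate 1 to 64.9% in PLA_E replicate 1.

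The balance between the hairpins differed too. There were between 1.31 and 9.07 reads of miR-451-5p for each miR-144 read (median 3.61). The ratio was highest in MS_E replicate 1 and lowest in PLA_A replicate 1, with 1.61 in the other PLA_A library. miR-23a-3p, the reference of the haemolysis index, stood at 710 to 1642 cpm and exceeded miR-451-5p in every library, from 8.89-fold in MS_E replicate 1 to 82.0-fold in CIA_B replicate 2.

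Over the 10 libraries, the log2 levels of miR-451-5p and miR-144-5p had a Pearson r of 0.61 (permutation p = 0.0623, adjusted p = 0.0935) and a Spearman rho of 0.78 (permutation p = 0.0106, adjusted p = 0.0317), two-sided and adjusted over the 3 pairs. Without the 2 libraries farthest from the median of miR-451-5p, CIA_B replicate 2 and MS_E replicate 1, r was 0.93, and without MS_E replicate 1 alone it was also 0.93. miR-144-3p and miR-144-5p had r = 0.69 (permutation p = 0.0298, adjusted p = 0.0895) and rho = 0.55 (permutation p = 0.104, adjusted p = 0.156). Their r was 0.49 without both PLA_A libraries and 0.90 without MS_A replicate 1. miR-451-5p and miR-144-3p had r = 0.47 (permutation p = 0.167, adjusted p = 0.167) and rho = 0.41 (permutation p = 0.247, adjusted p = 0.247), and r = 0.56 without CIA_B replicate 2 and MS_E replicate 1. With the group means removed, r was 0.71, 0.63 and 0.54 for the 3 pairs in this order. The libraries rich and poor in miR-1-3p number 5 each, and no correlation was computed within them.

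**Figure D4:**
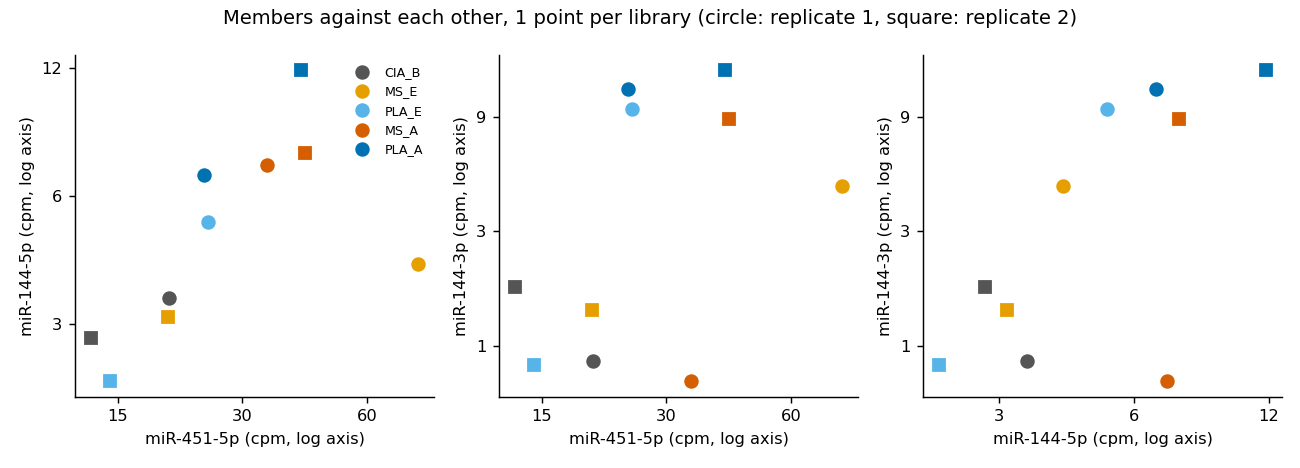
Levels of the members against each other in cpm on log axes, 1 point per library, coloured by group (circle, replicate 1, square, replicate 2). In the panel of miR-144-5p against miR-451-5p, MS_E replicate 1 lies apart from the other 9 libraries, at 79.8 and 4.17 cpm.

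Other miRNAs that red cells hold were examined as a list. The list of miR-16-5p, miR-15b-5p, miR-25-3p, miR-92a-3p, miR-363-3p and miR-185-5p was tested in full, and 0 of 6 were past the study's thresholds in MS_E, MS_A, PLA_E or PLA_A when each was set against CIA_B. Their median log2 fold changes there were 0.37, -0.07, 0.06 and 0.50, beside 0.06, 0.11, 0.07 and 0.12 over all tested. In MS_E replicate 1, where miR-451-5p was highest, the list did not move as one. miR-16-5p, which many cell types make, was there at 2831 cpm, its lowest value of the 10, and miR-92a-3p, of the miR-17-92 cluster, at 1774 cpm, its highest. miR-363-3p (38.3 cpm, and 6.87 in the partner library) and miR-15b-5p (61.6 and 27.0 cpm) were at their next to highest. The r of the list with miR-451-5p over the 10 libraries was 0.45 for miR-15b-5p, 0.37 for miR-92a-3p, 0.34 for miR-363-3p, -0.02 for miR-185-5p, -0.18 for miR-16-5p and -0.29 for miR-25-3p. Without MS_E replicate 1 the values were 0.23, -0.15, -0.13, 0.07, 0.39 and -0.42 in the same order, so 4 of the 6 turned their sign. Outside the comparisons with CIA_B, miR-363-3p was past the thresholds in MS_A, with log2 fold changes of -2.63 over PLA_A and -2.48 over MS_E (adjusted p = 0.999 and 0.914 in edgeR). These were -1.03 without PLA_A replicate 1 and -0.73 without MS_E replicate 1. miR-15b-5p had a log2 fold change of 1.94 in PLA_A over PLA_E (adjusted p = 0.999 in edgeR), with overlap between the groups, and of 0.26 without PLA_A replicate 1, the library at 116 cpm where its partner was at 21.0 cpm. Both were also past the thresholds in the interaction of arm and time, at -4.31 for miR-363-3p and -2.73 for miR-15b-5p, which became -2.47 without MS_E replicate 1 and -1.14 without PLA_A replicate 1. The list of miRNAs that are known to fall as red cell precursors mature, miR-221-3p, miR-222-3p, miR-223-3p, miR-150-5p and miR-24-3p, with 5 of 6 tested and miR-155-5p not analysed here, had 1 member higher by the thresholds in MS_E, 1 in MS_A and 1 in PLA_A against CIA_B. Of all miRNAs tested 6.13%, 1.11% and 7.52% were past the thresholds in these comparisons. The members past them were miR-223-3p in the stimulated groups and miR-150-5p in PLA_A, both of which are leukocyte miRNAs as well. The log2 fold change of miR-150-5p there, 2.88, was 0.25 without PLA_A replicate 1.

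Markers of other cells moved with some of these results. Of all miRNAs tested, 6.13% were past the thresholds in MS_E, 1.11% in MS_A, 0.557% in PLA_E and 7.52% in PLA_A against CIA_B. Epithelial miRNAs (the miR-200 family with miR-141-3p and miR-429, miR-203a-3p and miR-205), 6 of 7 tested, summed to 447 cpm in MS_E replicate 1, where the remaining 9 libraries held 33.8 to 135 cpm, and 4 of the 6 passed the thresholds in MS_E against CIA_B. miR-141-3p was at 220 cpm in that library and 3.44 cpm in its partner, and its log2 fold change of 5.47 was 0.36 without it. That of miR-200a-3p, 3.40, was 2.07 without it. For miR-200b-3p and miR-200c-3p no fold is given, because CIA_B held 0 and 1 reads of each in replicates 1 and 2. In MS_E they were at 34.1 and 14.7 cpm in replicate 1 and at 1.72 and 3.90 cpm in replicate 2. miR-200b-3p was detected in 9 of the 10 libraries, and miR-200c-3p and miR-429 in 8 each. Endothelial miR-126a strands summed to 4275 cpm in the same library, the lowest of the 10, against 8494 to 14719 cpm elsewhere. The part of these cells in the miR-451-5p level of 79.8 cpm was not tested. Leukocyte miRNAs (miR-142-3p, miR-142-5p, miR-150-5p, miR-223-3p and miR-146a-5p), 5 of 6 tested and each detected in all 10 libraries, had 3 members past the thresholds in PLA_A against CIA_B, miR-142-5p, miR-142-3p and miR-150-5p. They summed to 1638 and 1648 cpm in CIA_B, and every library after therapy was above both. The sums were 3054 and 3402 cpm in MS_E, 1975 and 2693 cpm in PLA_E, 2434 and 2620 cpm in MS_A, and 14586 and 2175 cpm in PLA_A. The median log2 fold change of the 5 against CIA_B was 1.02 in MS_E, 0.97 in PLA_E, 1.10 in MS_A and 2.88 in PLA_A, and 5 of 5 were positive in each, with miR-223-3p alone past the thresholds in MS_E and MS_A and none in PLA_E. In MS_A the log2 fold change of miR-223-3p, 1.46, was 0.86 without CIA_B replicate 1 and so no longer past them, and 2.39 without CIA_B replicate 2. The log2 fold change of miR-142-3p was 6.13, and 2.69 without PLA_A replicate 1, and that of miR-142-5p, 4.36, was also smaller without it. Over the 10 libraries miR-144-3p had r = 0.68 with miR-142-3p, 0.59 with miR-142-5p, 0.47 with miR-150-5p, 0.41 with miR-223-3p and -0.02 with miR-146a-5p. For miR-144-5p these were 0.49, 0.42, 0.30, 0.40 and -0.06 in the same order. For miR-451-5p they were 0.10, 0.06, -0.13, 0.54 and 0.46, or 0.33, 0.17, 0.23, 0.48 and -0.11 without MS_E replicate 1. The part of leukocytes in the levels of miR-451-5p and the miR-144 arms after therapy was not tested. Of the skeletal muscle list (miR-1-3p, miR-133a-3p, miR-133b-3p, miR-206-3p, miR-499-5p and miR-208b-3p) 0 of 6 were past the thresholds in PLA_A, and in MS_E 2 were lower, miR-499-5p and miR-208b-3p, which mark slow fibres. The 2 endothelial strands and miR-23a-3p were not past them in any group against CIA_B. Skeletal muscle sums overlapped between PLA_A (160138 and 189925 cpm) and CIA_B (92165 and 241899 cpm). With the miR-1-3p division as a term in the fit, the log2 fold changes of PLA_A over CIA_B were 2.96 for miR-144-3p (unadjusted p = 0.0546), 1.62 for miR-144-5p (unadjusted p = 0.0263) and 1.00 for miR-451-5p (unadjusted p = 0.162).

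**Figure D5:**
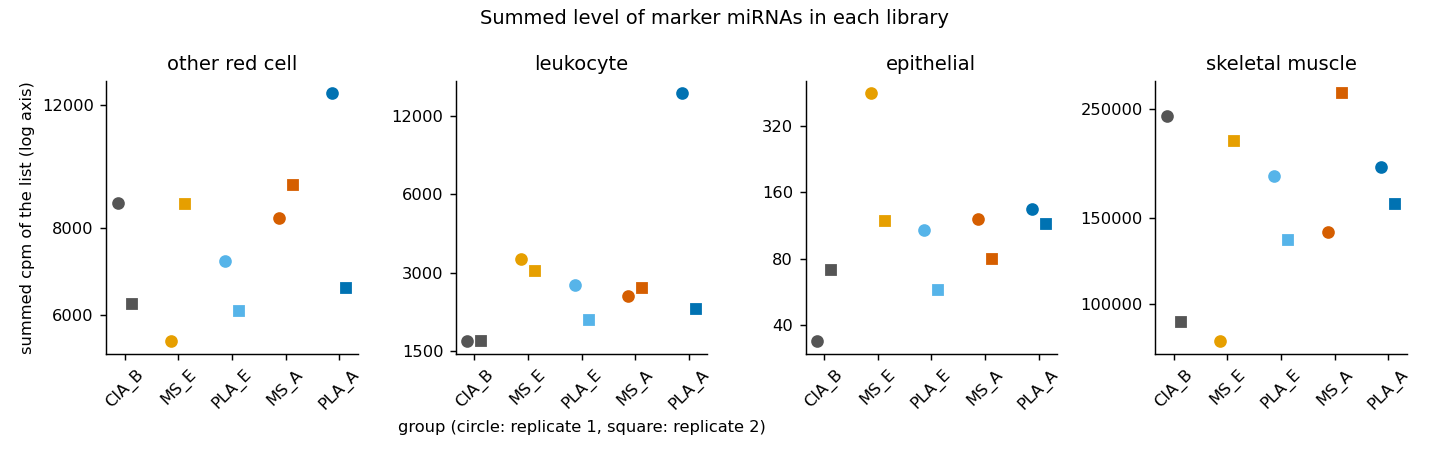
Summed cpm of 4 marker lists in each library on log axes (circle, replicate 1, square, replicate 2). PLA_A replicate 1 stands apart for leukocyte miRNAs at 14586 cpm, and MS_E replicate 1 for epithelial miRNAs at 447 cpm.

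The miRNAs most like each member were named by Pearson r of log2 levels over the 10 libraries, as a description, since the points share their library and depth. For miR-144-3p they were miR-32-5p (r = 0.83), miR-98-3p (0.80), miR-106b-5p (0.78), miR-33-5p (0.77) and miR-29b-3p (0.76). For miR-144-5p they were miR-196a-3p (0.82), miR-98-3p (0.81), miR-33-5p (0.78), miR-872-5p (0.76) and let-7f-2-3p (0.75). miR-98-3p and miR-33-5p are thus named for both arms, and reached at most 7.47 and 8.39 cpm. For miR-451-5p they were miR-200b-3p (0.80), miR-19a-3p (0.77), miR-141-3p (0.74), let-7i-3p (0.71) and let-7a-5p (0.70), and each of these 5 was highest in MS_E replicate 1. Without that library their r fell to between 0.40 and 0.63, whereas those of the miRNAs named for the miR-144 arms lay between 0.76 and 0.88. All of the latter but miR-29b-3p were highest in a PLA_A library, and both miR-144 arms were highest in PLA_A replicate 2. Their r without the PLA_A libraries was not computed.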

How the data were processed

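Small RNA of 10 rat tissue libraries was analysed, with groups from the labels and names from the study. The authors made TruSeq small RNA libraries, sequenced them on an Illumina HiSeq instrument, sorted reads by library with CASAVA 1.8, trimmed adapters, dropped short reads, aligned to rn4 and miRBase with miRDeep2 and Bowtie, and deposited raw read counts per miRNA and library. Strand and multiple mapping settings are not given in the sources used here. A mature miRNA with several precursors was taken once with its largest count, which concerned 35 names and no member. A table of the series with 20 value columns that match no label was not used.

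Counts were scaled by TMM and fitted with edgeR 4.0.16 in R 4.3.3 (robust quasi-likelihood, all 10 libraries, a mean per group, at least 1 cpm in at least 5 libraries, prior count 0.125 for fold changes and 2 for log2 cpm). The fit was also run on simulated counts as a check of the code, and no result here rests on that. With 2 libraries against 2 the smallest exact two-sided permutation p is 0.333, so none was computed. Correlations used 100000 permutations. A chi-square test of the counts of a group's libraries gave 1562 to 7794 per degree of freedom, so they differed by more than counting noise. It cannot tell separate animals from separate preparations of the same animal. Each library was counted. Alternatives were limma-voom (limma 3.58.1), DESeq2 1.42.0, its size factors in edgeR, no TMM factors, another filter (none, or 100 counts on average), a fit restricted to the groups compared, a block for the replicate number, counts summed over precursors, a term for the miR-1-3p division, and omission of each library. A prior count of 2 for fold changes and the likeness without MS_E replicate 1 were tried later, with the data in view.

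The members, the marker lists and the alternatives were chosen with earlier results of these data known. Named miRNAs are the members, the tested members of the marker lists and the 5 miRNAs most like each member, and miR-101a-3p and miR-101b-3p were named from their sequence. Python 3.11.15 served for tables (pandas 2.3.3, numpy 2.4.6), permutations (scipy 1.17.1) and plots (matplotlib 3.10.9).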

Additional observations from a re-analysis of the deposited data

How the results depend on the processing

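Among the members tested, depth limits the miR-144 arms most, with as few as 1 and 4 reads in a library. Of 307 fold changes of members under alternatives other than leaving out a library, 305 kept their direction and their side of the adjusted threshold. The exceptions were miR-144-5p in MS_E against PLA_E, 0.039 with only the libraries compared, and the interaction of miR-144-3p, 0.064 with library size only. The number of members past the thresholds of the study was less steady. In MS_E against CIA_B it went from 1 to 0 under limma-voom, library size only, the replicate block and only the libraries compared. In MS_A against CIA_B it went from 0 to 1 with only the libraries compared (miR-451-5p, unadjusted p = 0.0410 in edgeR). In PLA_A against CIA_B it went from 2 to 1 under limma-voom, DESeq2's size factors, library size only, the replicate block, summed counts and the miR-1-3p term, and to 0 without a filter and with a mean of at least 100 counts, the latter leaving the miR-144 arms untested. Otherwise the cause was not tested. The number of all miRNAs past these thresholds ranged over the alternatives from 15 to 41 in MS_E, 2 to 12 in MS_A, 1 to 9 in PLA_E and 9 to 49 in PLA_A against CIA_B, from 6 to 36 in MS_E and 1 to 14 in MS_A against placebo, from 3 to 31 in MS_A against MS_E, from 1 to 24 in PLA_A against PLA_E, from 2 to 22 after therapy and from 3 to 17 in the interaction.

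The replicate numbers did not pair the libraries. Deviations of same-numbered libraries correlated between -0.54 and 0.59 over 10 pairs of groups, of which 4 were above 0.1. In these 4 pairs the library richer in miR-1-3p had the same replicate number in both groups. In the other pairs it had not, and the correlations were negative. With the replicate block, log2 fold changes were 1.51 for miR-451-5p in MS_E, and 3.07 and 1.61 for miR-144-3p and miR-144-5p in PLA_A, against CIA_B. With library size only, the median of all log2 fold changes moved by -0.32 to 0.37 over the 10 comparisons, and in PLA_A against CIA_B it was 0.42 beside 3.32 for miR-144-3p, 1.83 for miR-144-5p and 1.31 for miR-451-5p. Under this scaling r was 0.70 for miR-451-5p and miR-144-3p (permutation, adjusted p = 0.0480) and 0.85 for the miR-144 arms (permutation, adjusted p = 0.0169).

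With each library left out in turn, an arm with 1 library is assumed to vary like the others. Of 150 such fold changes 128 kept their direction and 22 reversed. Omitting a library gave 0 to 1 members past the thresholds in MS_E and in PLA_A against CIA_B, in MS_E against PLA_E, in MS_A against PLA_A and after therapy, and 0 to 2 in PLA_A against PLA_E. The log2 fold changes that reversed had these ranges. For miR-144-3p they were -0.18 to 1.77 in MS_E, -1.13 to 2.56 in MS_A and -0.82 to 2.67 in PLA_E against CIA_B, -2.0 to 1.84 in MS_E against PLA_E, -2.17 to 1.87 in MS_A against MS_E and -3.40 to 0.64 in the interaction. For miR-144-5p they were -0.032 to 0.45 in MS_E and -0.46 to 0.78 in PLA_E against CIA_B, -0.50 to 0.72 in MS_E against PLA_E, -0.69 to 0.23 in MS_A against PLA_A and -1.06 to 0.26 in the interaction. For miR-451-5p they were -0.18 to 0.65 in PLA_E against CIA_B, -0.053 to 2.02 in MS_E against PLA_E, -0.11 to 0.78 in MS_A against PLA_A, -1.05 to 1.01 in MS_A against MS_E and -1.79 to 0.26 in the interaction. The r of miR-451-5p and miR-144-5p ran from 0.51 to 0.93, the latter without MS_E replicate 1. That of the miR-144 arms ran from 0.58 to 0.90, the latter without MS_A replicate 1.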

Other observations

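miR-101a-3p and miR-101b-3p, which share bases 2 to 7 with miR-144-3p, were far more abundant than it. miR-101a-3p lay between 1235 and 5616 cpm and miR-101b-3p between 169 and 830 cpm over the 10 libraries, where miR-144-3p did not exceed 14.0 cpm. These and miR-144-3p were highest in PLA_A replicate 2. In PLA_A against CIA_B the log2 fold changes were 0.96 for miR-101a-3p (standard error 0.52, unadjusted p = 0.0978) and 0.98 for miR-101b-3p (standard error 0.53, unadjusted p = 0.0959), with an adjusted p of 0.569 for both in edgeR, so neither passed the thresholds of the study there. Without PLA_A replicate 2 the fold changes were 0.25 and 0.24. Of the 20 results of this pair in the 10 comparisons, 1 was past those thresholds, miR-101b-3p in MS_E against PLA_E, at -1.26 on the log2 scale (standard error 0.53, unadjusted p = 0.0411, adjusted p = 0.834 in edgeR). Its levels there were 169 and 206 cpm in MS_E and 402 and 498 cpm in PLA_E, and the fold change stayed between -1.41 and -1.10 with any 1 library left out.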
